A study of Mus musculus with 10 samples.

Results

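The genes described here are 9 enzymes and regulators that make and break down glycogen, namely Gys1, Gbe1, Ugp2, Pygb, Pygl, Pygm, Gaa, Phka1 and Epm2a. They were chosen by symbol, with earlier results of these data known, and each was found once among the 39017 genes of the deposited count table. All 9 passed the filter on low counts, which left 16216 genes for the test.

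RNA was sequenced from 10 lung tumors of mice, 5 from KP controls and 5 from KPG1 animals. KP mice develop lung adenocarcinoma once Cre recombinase reaches the lung, and KPG1 mice also carry homozygous floxed alleles (fl/fl) of Slc2a1, which encodes the glucose transporter Glut1. For the KP libraries one label gives heterozygous fl/wt and another gives WT, and by the methods of the study controls could be either. All animals were C57BL/6 males, tumors of both genotypes were started with the adenovirus Ad5SPC-Cre, and they were collected 18 weeks and 6 days later. Cre in this virus is driven by the SPC promoter, which is active in alveolar type 2 cells. Slc2a1 could thus be deleted only in cells that the virus reached and that used this promoter, and in their descendants. Each library came from the cells of a dissected tumor that were left after magnetic removal of CD45-positive leukocytes.

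Glycogen is the branched glucose polymer in which cells store sugar. Glucose is activated to UDP-glucose, joined into chains by glycogen synthase and branched by the branching enzyme, and it is released again by phosphorylase in the cytosol or by acid alpha-glucosidase in the lysosome. In the lung, alveolar type 2 cells are known for glycogen stores that are used up before birth as surfactant is made. The comparison asks how the mRNA of these enzymes differed where the main glucose transporter had been deleted.

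Promoter windows of all 9 genes, reaching from 250 bases before to 50 bases after the RefSeq start on GRCm38.p6, were searched on both strands for ACGTG and GCGTG, the letters at the core of the hypoxia response element, and for CACGTG, the palindromic E-box, which contains ACGTG. A pair of windows exists for Ugp2 and a single one for each other gene, 10 in all. Among 32851 windows of this length in the mouse, 43.8% held ACGTG or GCGTG, and 7 of the 10 windows here did. CACGTG stood in 7.15% of all windows and in that of Gaa alone among these genes. The windows of these genes had a median GC content of 61.7%, against 52.7% for all windows, and both core forms contain CG. The 3 windows printed here belong to Ugp2, the gene with the smallest p of the set, to Pygl, whose level varied most between tumors, and to Gaa, with its E-box. Capitals mark the motif letters on either strand.
Ugp2, chr11:21371218-21371517, minus strand: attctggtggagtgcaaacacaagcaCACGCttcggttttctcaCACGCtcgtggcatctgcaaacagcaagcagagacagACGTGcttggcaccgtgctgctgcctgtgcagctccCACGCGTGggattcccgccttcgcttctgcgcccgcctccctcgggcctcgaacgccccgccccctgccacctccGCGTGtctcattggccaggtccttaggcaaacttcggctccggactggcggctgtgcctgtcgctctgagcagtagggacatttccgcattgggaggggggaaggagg
Pygl, chr12:70227634-70227933, minus strand: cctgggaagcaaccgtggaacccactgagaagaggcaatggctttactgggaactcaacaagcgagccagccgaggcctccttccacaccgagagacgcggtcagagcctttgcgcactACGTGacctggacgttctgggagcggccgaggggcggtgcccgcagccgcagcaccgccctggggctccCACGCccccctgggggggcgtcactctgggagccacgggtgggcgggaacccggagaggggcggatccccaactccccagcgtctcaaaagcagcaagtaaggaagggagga
Gaa, chr11:119267713-119268012, plus strand: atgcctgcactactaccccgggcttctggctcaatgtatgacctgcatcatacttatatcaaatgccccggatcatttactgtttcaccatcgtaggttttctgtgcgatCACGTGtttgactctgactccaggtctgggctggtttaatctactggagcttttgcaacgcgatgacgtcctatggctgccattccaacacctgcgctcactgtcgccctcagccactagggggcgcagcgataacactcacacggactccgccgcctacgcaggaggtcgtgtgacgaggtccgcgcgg
The Ugp2 window held 1 match to ACGTG and 5 to GCGTG, while the second Ugp2 window held none. Pygl had 1 match to each form. Windows of Gys1 and Gbe1 held neither. A match is a run of letters, and no binding was measured in these tumors.

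Library depth ranged from 32427029 to 49534284 counts, and values are given as log2 CPM, the log2 of counts scaled to a common library size (CPM) with TMM scaling and a prior count of 2. The first principal component took 28.0% of the variance and had KP 1 and KP 5 at its ends, at -74.0 and 71.8. Slc2a1, read first as a check of the labels, was at 6.30, 6.99, 6.95, 6.76 and 6.16 log2 CPM in KP 1 to KP 5 and at 5.57, 6.06, 5.35, 5.68 and 5.47 in KPG1 1 to KPG1 5. Each KPG1 library lay below each KP library, with means of 102 ± 25.4 CPM in KP and 50.1 ± 10.1 CPM in KPG1 (SD, n = 5 each). The two-sided exact permutation p was 0.00794, the smallest that 252 rearrangements can give, while limma gave a log2 fold change of -1.01 (SE 0.20) with an adjusted p of 0.0675. That adjusted p became 0.0220 without KP 5 and lay between 0.0993 and 0.230 with any other single library left out. Transcript from cells without the deletion and any transcript left in deleted cells cannot be told apart in these counts. Epcam, an epithelial surface protein, was at 8.38 to 9.29 log2 CPM, and Sftpc, the surfactant protein of alveolar type 2 cells, at 12.39 to 15.29. Both mark alveolar epithelium, so these values cannot tell tumor from normal lung.

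Across the 9 genes, none passed an adjusted p of 0.05 in limma (Benjamini-Hochberg over all 16216 genes), where 0.173% of all genes did. The count was also 0 with edgeR's quasi-likelihood test and with DESeq2. Ugp2 alone had an unadjusted p under 0.05 in limma, 1 of 9, against 11.6% of all genes. The fitted log2 fold change, KPG1 minus KP, lay above 0 for 9 of 9, whereas 52.7% of all genes did. Its median was 0.18 for the 9 and 0.02 for all genes (quartiles -0.20 and 0.21). The 9 genes were chosen with earlier results of these data known and mostly correlated with each other, so the count is a description. Of the 30 other glycogen genes tested, 17 lay above 0. Without KP 1 and KP 4, the libraries with the lowest sums of alveolar type 2 markers, the fitted value lay above 0 for 6 of the 9 enzymes, with a median of 0.08. Each of these libraries was also the lowest for 3 of the 9 enzymes, so leaving them out lowers the fitted values by itself. For no member did the log2 CPM of the genotypes separate, and of all genes 1.05% separated with KPG1 higher and 1.76% with KPG1 lower. Summed over the 9 genes, KP libraries held 566 to 703 CPM and KPG1 libraries 653 to 830 CPM, so the sums overlapped too. In bulk RNA a change in the number of expressing cells and a change in RNA per cell cannot be told apart.

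**Figure D1:**
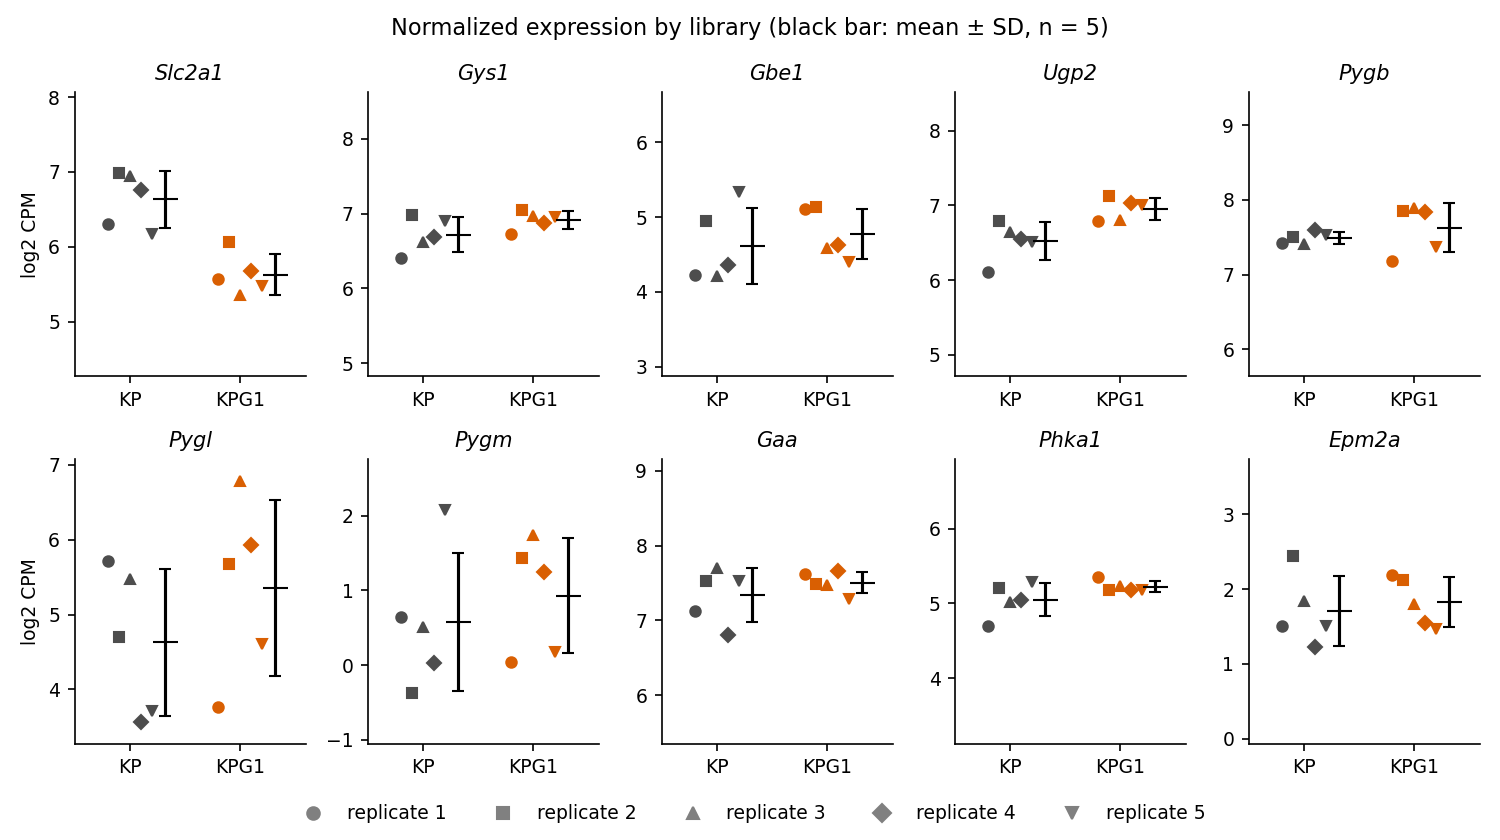
Normalized expression of Slc2a1 and the 9 glycogen enzymes in each library, with log2 CPM on the vertical axes (each spanning the same number of units), KP in gray, KPG1 in orange, symbols for replicate numbers and black bars for mean ± SD (n = 5). Slc2a1 separates the genotypes, Ugp2 nearly does, and Pygl and Pygm spread most within each genotype.

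Levels can be compared between genes only per length, and CPM per kilobase of exon union (all exons of a gene merged, GENCODE M21) was used for that. By this measure Pygb was at 39.7 ± 6.53, Gaa at 36.4 ± 6.23 and Ugp2 at 35.4 ± 6.90 CPM per kb (SD, n = 10 tumors). These leading genes were not in a fixed order, since Pygb exceeded Gaa in 6 of 10 tumors and Gaa exceeded Ugp2 in 6 of 10. Gys1 followed at 23.7 ± 3.16 CPM per kb, below Ugp2 in all 10 tumors. Pygl at 5.91 ± 4.42, Phka1 at 5.65 ± 0.66 and Gbe1 at 5.01 ± 1.46 CPM per kb formed a middle group, in which Pygl exceeded Phka1 in 5 of 10 tumors. The lowest levels were those of Epm2a at 1.05 ± 0.30 and Pygm at 0.59 ± 0.36 CPM per kb, with Epm2a the higher in 9 of 10 tumors. With the longest transcript as the length, Gbe1 and Phka1 changed places and all other ranks were kept.

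Ugp2 encodes UDP-glucose pyrophosphorylase, which makes the UDP-glucose that glycogen synthase uses (chr11:21321138-21371201, minus strand, mm10). The KP tumors 1 to 5 were at 6.11, 6.79, 6.64, 6.56 and 6.52 log2 CPM, and the KPG1 tumors 1 to 5 at 6.79, 7.13, 6.81, 7.03 and 7.01. Of the 5 KPG1 tumors, 4 lay above every KP tumor, and the overlap came down to KPG1 1 and KP 2, which were at the same value to 2 decimals. Means were 92.9 ± 15.4 CPM in KP and 124 ± 12.7 CPM in KPG1 (SD, n = 5 each). The log2 fold change was 0.43 (SE 0.14, 95% interval 0.12 to 0.74), a 1.35-fold difference, with an unadjusted p of 0.0104 and an adjusted p of 0.273 in limma. It stayed above 0 in 20 of 20 alternative settings, between 0.28 and 0.49, and past an adjusted p of 0.05 in 0 of them. Mir1933 on the same strand and Gm12043 on the other overlap the gene, and the strand setting of the counting is not given in the sources used here.

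Gys1, the glycogen synthase isoform of muscle and most other tissues, lies at chr7:45434844-45456619 on the plus strand. In KP tumors 1 to 5 it stood at 6.40, 6.98, 6.61, 6.69 and 6.90 log2 CPM, and in KPG1 tumors 1 to 5 at 6.72, 7.05, 6.96, 6.87 and 6.96. The KPG1 tumors sat in the upper part of the KP range, and only KPG1 2 exceeded all KP tumors. In limma the log2 fold change was 0.19 (SE 0.13, 95% interval -0.09 to 0.48, adjusted p = 0.599). The gene shares 290 bases of transcript sequence with Ruvbl2 on the opposite strand, so reads of that stretch are uncertain. Its liver counterpart Gys2 had at most 2 counts in any library, and Gys1 made up 99.9% to 100% of the summed synthase level per kb.

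Gbe1 encodes the branching enzyme, which adds the branch points to the chains (chr16:70313949-70569716, plus strand). KP 1 to KP 5 were at 4.22, 4.95, 4.21, 4.36 and 5.34 log2 CPM, and KPG1 1 to KPG1 5 at 5.11, 5.14, 4.59, 4.63 and 4.40. KP 5 was the highest tumor of all and KP 3 the lowest, so the KPG1 values lay inside the KP range. The log2 fold change was 0.16 (SE 0.25, 95% interval -0.38 to 0.70, adjusted p = 0.844 in limma), and it was -0.06 without KP 1 and KP 4.

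Phosphorylase removes glucose units from the chain ends and has a separate gene for its brain, liver and muscle isoforms. Pygb, the brain isoform (chr2:150786735-150831758, plus strand), was at 7.42, 7.51, 7.41, 7.59 and 7.52 log2 CPM in KP 1 to KP 5 and at 7.19, 7.85, 7.90, 7.84 and 7.37 in KPG1 1 to KPG1 5. The KP tumors spanned 0.19 log2 units, whereas the KPG1 tumors spanned 0.71, with 3 above every KP tumor and 2 below every one. In limma its log2 fold change was 0.14 (SE 0.15, 95% interval -0.20 to 0.47, adjusted p = 0.767).

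Pygl, the liver isoform (chr12:70190811-70231488, minus strand), had the widest range of the set. Values were 5.71, 4.70, 5.47, 3.56 and 3.71 log2 CPM in KP tumors 1 to 5, and 3.77, 5.68, 6.79, 5.93 and 4.60 in KPG1 tumors 1 to 5. The highest values, in KPG1 3 and KPG1 4, were above every KP tumor, while KPG1 1 lay close to KP 4 and KP 5 at the low end of a range that spanned 9.37-fold. The log2 fold change of 0.73 (SE 0.60) had a 95% interval from -0.57 to 2.04, that is from 0.67-fold to 4.12-fold, with an adjusted p of 0.668 in limma. It moved to 0.36 without KPG1 3 and to 1.13 without KPG1 1, and F730035M05Rik overlaps the gene on the opposite strand.

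Pygm, the muscle isoform whose loss causes McArdle disease (chr19:6384399-6398459, plus strand), was expressed at a low level, with 23 to 181 counts per library. KP 1 to KP 5 were at 0.65, -0.37, 0.51, 0.03 and 2.07 log2 CPM, and KPG1 1 to KPG1 5 at 0.05, 1.44, 1.74, 1.24 and 0.17. KP 5 was highest and KP 2 lowest, with the KPG1 tumors between them. The log2 fold change was 0.33 (SE 0.50, 95% interval -0.77 to 1.42, adjusted p = 0.842 in limma), moving to 0.71 without KP 5 and to 0.10 without KP 2. Of 16 markers of striated muscle, Sln, Nppa, Pln and Myh1 had at most 3 counts in every library, while Myh7 stood at 8.66 to 10.22 log2 CPM. Their summed level was 428 to 1281 CPM in KP and 672 to 1026 CPM in KPG1, of which Myh7 alone made up 93.3% to 98.9%. The correlation with Pygm over the 10 tumors was -0.20 for Myh7 and -0.33 for the sum of the others. With other members the sum without Myh7 correlated at -0.76 for Phka1 and at -0.71 for Gys1 and for Ugp2. For Gbe1, Pygb, Pygl, Gaa and Epm2a it lay between -0.42 and 0.17. This sum was 85.9 CPM in KP 1 and 10.3 to 26.0 CPM in the other tumors. Of the 7 striated muscle markers tested, 3 had a fitted value above 0, namely Ryr2, Tnni3 and Myh7, and 4 lay below. The lowest was Tnnt2, a troponin of heart muscle, with a log2 fold change of -2.13 (adjusted p = 0.163 in limma), and the highest was Ryr2. None of the 7 passed an adjusted p of 0.05, so the list did not move in 1 direction.

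Taken per kilobase, Pygb made up 88.7% ± 5.82 of the summed phosphorylase level in KP and 85.2% ± 7.14 in KPG1 (SD, n = 5 each), Pygl 10.05% ± 6.09 and 13.6% ± 6.89, and Pygm 1.29% ± 1.04 and 1.22% ± 0.30. The share of Pygl ran from 4.04% in KP 4 to 24.0% in KPG1 3. Summed over the 3 genes, the KP tumors were close to each other, at 43.7, 41.8, 42.1, 42.1 and 41.4 CPM per kb. KPG1 tumors were spread on both sides of them, at 32.5, 56.1, 66.6, 57.1 and 38.3 CPM per kb. The ratio of Gys1 to this sum was 0.527 ± 0.0915 in KP and 0.533 ± 0.137 in KPG1 (SD, n = 5 each), a difference smaller than the spread between tumors.

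**Figure D2:**
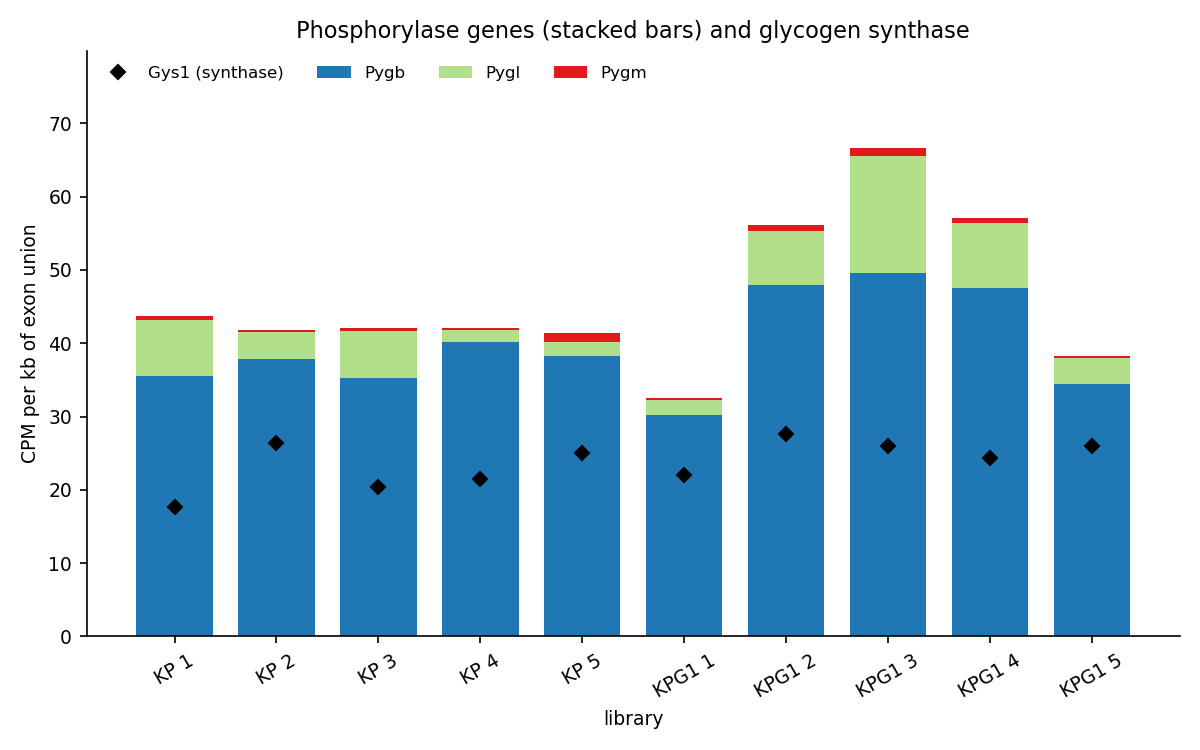
Stacked bars give the level of Pygb, Pygl and Pygm in each library in CPM per kilobase of exon union, and black diamonds give Gys1 on the same scale. Pygb is the largest part of every bar, bar heights are near 42 in KP and run from 32.5 to 66.6 in KPG1, and Gys1 lies under the phosphorylase sum in each tumor.

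Phka1 encodes a regulatory alpha subunit of phosphorylase kinase, which switches phosphorylase on (chrX:102513975-102644246, minus strand). It was measured at 4.70, 5.20, 5.02, 5.04 and 5.28 log2 CPM in KP tumors 1 to 5, and at 5.35, 5.18, 5.23, 5.18 and 5.18 in KPG1 tumors 1 to 5. The KPG1 tumors spanned 0.17 log2 units, the narrowest range of any of the 9 genes within a genotype, and KP 1 alone lay clearly below the rest. In limma the log2 fold change was 0.18 (SE 0.13, 95% interval -0.10 to 0.45, adjusted p = 0.624). Phka2, the alternative alpha subunit, was at 6.04, 5.06, 4.34, 4.60 and 3.52 log2 CPM in KP 1 to KP 5 and at 3.65, 3.69, 3.43, 3.69 and 5.10 in KPG1 1 to KPG1 5, a log2 fold change of -0.80 (SE 0.46, adjusted p = 0.529). Of the summed alpha subunit level per kb of exon union, Phka1 held 27.7%, 51.6%, 60.8%, 56.9% and 76.8% in KP 1 to KP 5 and 75.9%, 73.1%, 77.2%, 73.2% and 50.6% in KPG1 1 to KPG1 5. Which form was the larger depended on the length used in KP 2, KP 4 and KPG1 5, where the share was 43.8%, 49.1% and 42.9% with the longest transcript. In KP 1 it was 21.9% by that length, so Phka2 was the larger form there with either length.

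Gaa, acid alpha-glucosidase, degrades glycogen in lysosomes and is the enzyme missing in Pompe disease (chr11:119267887-119285454, plus strand). KP 1 to KP 5 were at 7.13, 7.53, 7.70, 6.80 and 7.53 log2 CPM, and KPG1 1 to KPG1 5 at 7.62, 7.48, 7.47, 7.65 and 7.29. KP 3 was the highest and KP 4 the lowest, and no KPG1 tumor fell outside the KP range. The log2 fold change was 0.17 (SE 0.17, 95% interval -0.21 to 0.54, adjusted p = 0.747 in limma), with 0.03 left without KP 4 and -0.08 without KP 1 and KP 4. Among 18 other lysosomal hydrolases and membrane proteins, 10 had a fitted value above 0 and 8 below, none passed the adjusted threshold, and the median was 0.01.

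Epm2a encodes laforin, a phosphatase that removes phosphate from glycogen and is mutated in Lafora disease (chr10:11343404-11459644, plus strand). It had 97 to 207 counts per library, with 1.51, 2.44, 1.84, 1.23 and 1.51 log2 CPM in KP 1 to KP 5 and 2.19, 2.13, 1.80, 1.54 and 1.47 in KPG1 1 to KPG1 5. KP 2 was the highest tumor and KP 4 the lowest, and the KPG1 values lay inside the KP range. Its log2 fold change of 0.15 (SE 0.27, 95% interval -0.43 to 0.73, adjusted p = 0.864 in limma) took the opposite sign, -0.07, with a weight for each library and also without KP 1 and KP 4. Rpl17-ps11 overlaps it on the opposite strand.

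**Figure D3:**
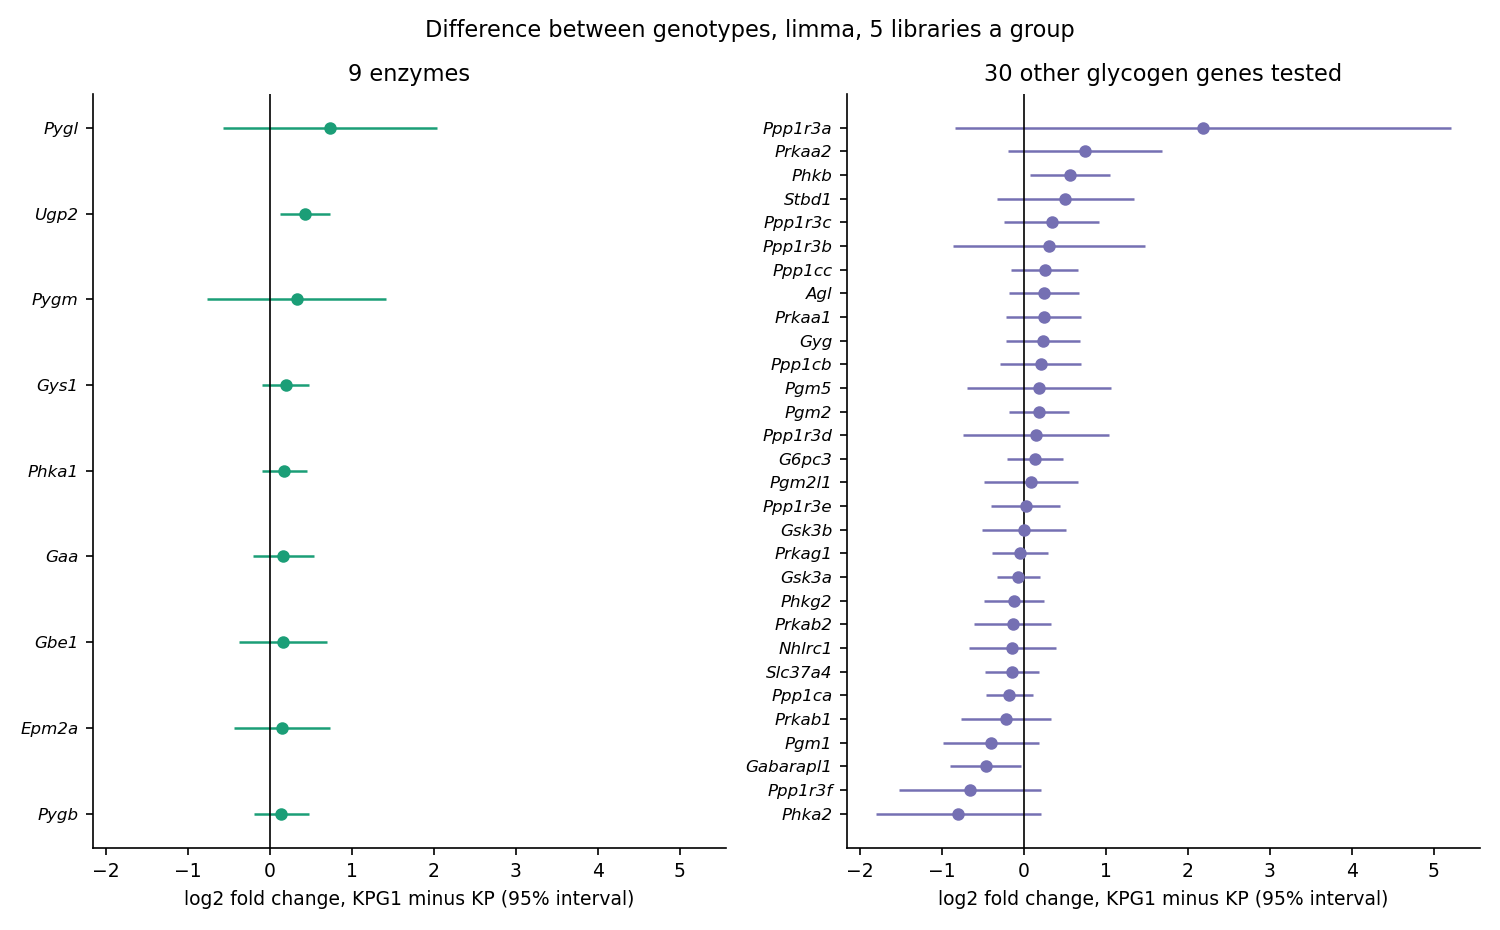
Log2 fold change, KPG1 minus KP, with its 95% interval from limma for the 9 enzymes (left) and the 30 other glycogen genes tested (right), 5 libraries a group. All 9 points on the left lie right of 0, and of their intervals only that of Ugp2 leaves out 0.

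Marker genes of cell types moved with several of these values. The summed level of 11 epithelial and alveolar type 2 markers was 22196 CPM in KP 1 and 29159 CPM in KP 4, whereas the other 8 tumors ranged from 44707 to 79915 CPM. KP 1 was also the lowest tumor for Gys1, Ugp2 and Phka1, and KP 4 for Pygl, Gaa and Epm2a. Over the 10 tumors the Pearson correlation of the marker sum (log2) with log2 CPM was 0.85 for Phka1, 0.78 for Gaa, 0.70 for Ugp2 and 0.60 for Gys1 and for Gbe1. It was 0.57 for Epm2a, 0.02 for Pygm, -0.14 for Pygb and -0.17 for Pygl, so Pygl did not follow the sum although it was lowest in KP 4. Without Sftpc, the most abundant marker at 14.8% to 50.3% of the sum, KP 1 and KP 4 remained the lowest tumors. KP 4, at 23057 CPM, then lay close to KPG1 3, at 25252 CPM. The correlation was then 0.80 for Phka1, 0.73 for Gbe1, 0.67 for Gaa, 0.62 for Gys1 and 0.55 for Ugp2. For Epm2a it was 0.46, for Pygm 0.11, for Pygb -0.12 and for Pygl -0.36. The sum without Sftpc still held other surfactant genes, Sftpb at 12.97 to 14.59 log2 CPM and Sftpa1 at 11.43 to 14.06, above Epcam at 8.38 to 9.29. Of the 11 markers, 7 had a fitted value above 0 in KPG1 and 4 below, with Lamp3 at 1.25 and Sftpc at 1.22 on one side and the keratin Krt18 at -0.87 on the other, and none passed an adjusted p of 0.05 in limma. An unadjusted p under 0.05 was found for 2 higher and 3 lower markers, 45.5% of the list, against 11.6% of all genes. The genotypes separated for Abca3, higher in KPG1, and for Krt8 and Krt18, lower in KPG1. Without KP 1 and KP 4 the log2 fold changes were 0.30 for Ugp2, 0.08 for Gys1 and 0.06 for Phka1. KP 1 was the lowest tumor for each of these genes, so leaving it out lowers their differences by itself. The part of cell makeup in these values was not tested.

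Among other cell types, 8 fibroblast markers summed to 726 to 2958 CPM in KP and 894 to 1720 CPM in KPG1, and 7 of 8 had a fitted value above 0. Fn1, the exception at -0.18, made up 71.9% to 91.6% of the sum in each tumor. The correlation of the sum with Phka1 over the 10 tumors was -0.77 with Fn1 and -0.23 without it. Leukocyte markers were low, at 45.2 to 76.5 CPM in KP and 31.6 to 54.3 CPM in KPG1 summed over 11 genes, with 6 of 8 tested below 0 and Ly6g at no more than 2 counts. Of the 8 tested, 4 had an unadjusted p under 0.05 in limma, all lower in KPG1, against 11.6% of all genes. The genotypes separated for 3 of them, and 1.76% of all genes separated with KPG1 lower. The leukocyte sum correlated with Ugp2 at -0.71, and at -0.72 without Cd68, its most abundant gene. All 8 endothelial markers were fitted above 0, at 294 to 982 CPM in KP and 444 to 1420 CPM in KPG1, 5 of 7 smooth muscle markers and 3 of 5 erythroid markers were, and in striated muscle 3 of 7. The endothelial sum correlated with Pygm at -0.67 and with Epm2a at 0.62. Without Vwf, its most abundant gene, these were -0.62 and 0.62. The strongest correlation of the smooth muscle sum was -0.65, with Gbe1, and that of the erythroid sum 0.63, with Gaa.

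Correlations between members over the 10 tumors were mostly positive, in 32 of 36 pairs, with a median of 0.34. Gys1 and Ugp2 were the closest pair at 0.81 (0.76 within genotypes), followed by Gys1 and Phka1 at 0.76 and Gbe1 and Phka1 at 0.72. Pygl correlated with the other phosphorylases Pygb at 0.62 and Pygm at 0.40, and with Gbe1 at -0.33 and Phka1 at -0.27. These tumors share library preparation and scaling, so the values are a description.

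The genes whose log2 CPM followed each member most closely over the 10 tumors were read from all genes tested. For Ugp2 these were Rpn1, a subunit of the oligosaccharyltransferase that glycosylates proteins in the endoplasmic reticulum (r = 0.963), and Slc31a1, a copper transporter (r = 0.937). Gys1 was followed by Tmem231 (0.955) and 1110051M20Rik (0.931), and Gbe1 by Rapgef2 (0.958) and Nab1 (0.950). For the phosphorylases they were Aqr (0.966) and Taf3 (0.958) for Pygb, Gm10169 (0.954) and Gse1 (0.948) for Pygl, and Rn7sk (0.958) and Crabp2 (0.952) for Pygm. Gaa had Cul9 (0.951) and Med9 (0.927), Phka1 had Nt5dc1 (0.960) and Foxp2 (0.957), and Epm2a had Pde4b (0.948) and Gm9581 (0.935). Each was among the 2 closest of 16216 genes on 10 points.

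The other genes of the pathway came from a list of 35 symbols, of which 34 were in the table. Gys2, Phkg1, Ppp1r3g and G6pc were too low to be tested, at no more than 5 counts in any library. Of the 30 tested, 17 had a fitted value above 0 and 13 below, with a median of 0.11, and none passed an adjusted p of 0.05. Phkb, the beta subunit of phosphorylase kinase, was at 5.76, 6.31, 6.07, 6.12 and 6.22 log2 CPM in KP 1 to KP 5 and at 7.26, 7.17, 6.29, 6.28 and 6.31 in KPG1 1 to KPG1 5. KPG1 1 and KPG1 2 stood apart from the rest of their genotype, and limma gave 0.57 (SE 0.22, unadjusted p = 0.0266, adjusted p = 0.363). Gabarapl1, an autophagy protein that binds the glycogen receptor Stbd1, was at 7.18 to 8.02 log2 CPM in KP and 6.41 to 7.21 in KPG1, a log2 fold change of -0.47 (SE 0.20, unadjusted p = 0.0374, adjusted p = 0.391). Ppp1r3a, a glycogen-targeting subunit of phosphatase 1 that is named here after its values were seen, stood at 5.04 log2 CPM in KPG1 4 and at -0.50 or less in every other tumor.

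UDP-glucose also feeds other routes, and 9 genes that use it or act on its galactose and glucuronate relatives were read in the same fit. Their fitted values were above 0 for 3 and below 0 for 6, with a median of -0.01 and none past an adjusted p of 0.05. Uggt1, the glucosyltransferase of glycoprotein quality control, was at 6.84, 7.04, 7.21, 7.15 and 7.21 log2 CPM in KP 1 to KP 5 and at 7.51, 7.40, 7.24, 7.46 and 7.24 in KPG1 1 to KPG1 5. Among the glycogen enzymes, the other glycogen genes and this list, it was the single gene whose genotypes did not overlap. The gap was narrow, from 7.21 in KP to 7.24 in KPG1, and of all genes 1.05% separated with KPG1 higher and 1.76% with KPG1 lower. Its log2 fold change was 0.28 (SE 0.11, unadjusted p = 0.0304, adjusted p = 0.375 in limma). Ugdh, which oxidizes UDP-glucose to UDP-glucuronate, was at 8.10 and 8.48 log2 CPM in KP 1 and KP 4 and at 6.57 to 7.04 in the other 8 tumors, with a log2 fold change of -0.66 (SE 0.32, adjusted p = 0.457). Uxs1, which turns UDP-glucuronate into UDP-xylose, had 0.23 (SE 0.12, adjusted p = 0.482).

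Hypoxia is known to raise Slc2a1 and several glycogen enzymes, and 16 hypoxia targets, Slc2a1 among them, were read in the same fit. Of these, 3 had a fitted value above 0 and 13 below, with a median of -0.34, and none passed an adjusted p of 0.05. The 13 include Slc2a1 itself, the deleted gene, at -1.01. The part of hypoxia in the values of the glycogen enzymes was not tested. Their sum was 1742 to 2967 CPM in KP and 1590 to 1879 CPM in KPG1.

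**Figure D4:**
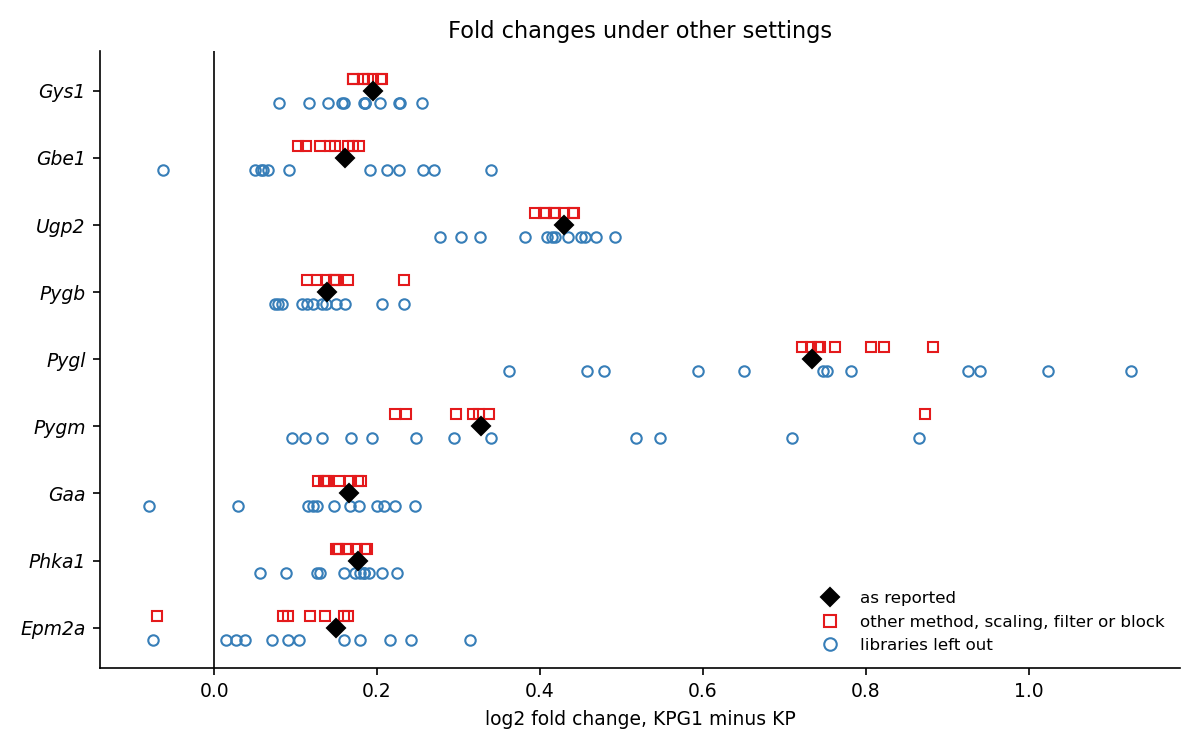
Log2 fold change of each enzyme, KPG1 minus KP, as reported (black diamond), with another method, scaling, filter or the block (red squares) and with 1 or 2 libraries left out (blue circles). Ugp2, Gys1, Pygb, Pygl, Pygm and Phka1 stay right of 0 throughout, while Gbe1, Gaa and Epm2a reach values below 0.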

How the data were processed

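Expression was measured in bulk polyA RNA of 10 tumors, 5 KP and 5 KPG1, grouped by the group label. According to the labels and the study's methods, stranded mRNA libraries were sequenced from one end, trimmed with cutadapt (1.4.2 in the submitters' processing notes, another version in the methods), aligned to mm10 with HISAT2 and counted with featureCounts 1.4.4. The strand setting and annotation release are not given in the sources used here. The authors deposited raw counts, whole reads for each of 39017 genes with no normalization, and all 390170 values of the joint table equaled those deposited per library. A deposited log2 table of the same libraries was not used. A count rises with gene length and depth (32427029 to 49534284 per library). The 95% intervals of fold changes come from limma. They give the uncertainty of the difference between group means, estimated from the spread between tumors.

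The filterByExpr function of edgeR 4.0.16 selected genes, which were scaled by TMM, and fitted with voom and limma 3.58.1 in R 4.3.3 with genotype as the only term, as in the study except that its filter on TPM was replaced. P-values were adjusted by Benjamini-Hochberg over 16216 genes, with a threshold of 0.05, and scripts were tested on simulated data. Alternatives were edgeR's quasi-likelihood test, DESeq2 1.42.0, other scalings and filters, library weights, a replicate block and libraries left out. Leaving out KP 1 and KP 4 was added after seeing the data. The labels do not say that libraries of a group came from separate animals, so p-values rest only on the spread between these samples. Lengths came from GENCODE M21 and transcript copies (at least 90% identity over 85 bases) from blastn 2.17.0. Promoter sequences came from RefSeq.

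The 9 genes and all lists were chosen with earlier results of these data known. Named were Slc2a1, the 9 genes, the 6 other pathway or UDP-glucose genes with the smallest p, the 2 genes most correlated with each member, and defining markers that were at 0 or whose list moved with a member. The engineered alleles that start the tumors are not reported here.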

Additional observations from a re-analysis of the deposited data

Results flagged for a closer look

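Among 32 groups of 5 libraries searched over the 9 glycogen enzymes and some of the genes named beside them, 1 held a library far from the others, where chance gives about 1.6. Ppp1r3a, named after its values were seen, was not in this search. In KPG1 it also had a library far from the others, at 5.04 log2 CPM in KPG1 4 and next at -0.50 in KPG1 3. Phka2, the alternative alpha subunit of phosphorylase kinase, stood at 5.10 log2 CPM in KPG1 5, while the other 4 KPG1 tumors lay between 3.43 and 3.69. Its gap to the next tumor was 0.841 of the range of the group, against a critical value of 0.71 for 5 samples. Phka1 in the same tumor was at 5.18 log2 CPM, the same as in KPG1 2 and KPG1 4.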

How the results depend on the processing

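None of the 9 enzymes and none of the 30 other glycogen genes tested passed an adjusted p of 0.05 in any of 20 alternatives, and Ugp2 was the single enzyme with an unadjusted p under 0.05 in each. The fitted value was above 0 for 9 of 9 enzymes except under library weights (8 of 9), a mean CPM of at least 20 (7 of 7, Pygm and Epm2a not tested) and without KP 1 and KP 4 (6 of 9). Values that changed sign were Epm2a at -0.0706 under library weights and Gbe1 at -0.0632, Gaa at -0.0797 and Epm2a at -0.0747 without KP 1 and KP 4. Leaving out 1 library at a time moved Ugp2 between 0.33 and 0.49, Pygl between 0.36 and 1.13 and Pygm between 0.10 and 0.71. Slc2a1 passed the threshold with DESeq2 (-1.04), library weights (-1.13) and without KP 1 and KP 5 together (-1.29), and ranged from -1.14 to -0.92 with 1 library left out, passing without KP 5 (-1.14, adjusted p = 0.0220). Over all genes, limma called 10 higher and 18 lower in KPG1. The higher count became 125 with DESeq2, 5 with a mean CPM of at least 20, 51 with library weights, 3 without KP 1 and KP 4, and 3 to 71 with 1 library left out. The lower count became 29 with edgeR, 423 with DESeq2, 31 with no filter, 31 with a mean CPM of at least 20, 177 with library weights, 44 without KP 1 and KP 5, 1 without KP 1 and KP 4, and 1 to 223 with 1 library left out. Among single libraries left out, each count was highest without KP 5, and the cause was not tested. Replicate numbers did not pair the libraries, since deviations of same-numbered libraries correlated at -0.16 to 0.08, and with a replicate block 4 genes were higher and 1 lower, while Ugp2 kept 0.43. With the longest transcript as length, the Pygb share of phosphorylase in KP was 82.6% and that of Pygl 16.3%. Counts under 210 per library limit Pygm and Epm2a.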
